A study of Mus musculus with 2 samples.

Results

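The NR4A orphan nuclear receptors (Nr4a1, Nr4a2 and Nr4a3) and the EGR zinc-finger factors (Egr1, Egr2 and Egr3) make up 6 of the 32285 genes counted in both libraries, and were taken from the count tables by symbol. The members were selected on earlier results from these same libraries, their UMI levels across cell classes and between the 2 libraries, so their levels and their differences between the libraries are given as descriptions. Single-cell RNA sequencing (10x Genomics, 5′ chemistry) was run on live CD45+ leukocytes sorted from hepatocellular carcinomas of mice labelled MYC-ON. The mice had been gavaged with DMSO or with an agent labelled STK, and both groups shared the MYC-ON genotype. Each group was 1 library. The labels give no dose or duration, no sex, age or number of animals, no statement on pooling, and not what drives MYC.

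Both families are immediate-early genes: their RNA appears within minutes of receptor signalling without new protein synthesis, and decays again fast. NR4A proteins have a ligand-binding fold with no usable pocket, so their activity follows how much of them is made, and they bind DNA at the NBRE element. In T cells antigen receptor signalling induces all 3 Nr4a genes, which are known for roles in regulatory T cells and in T cell exhaustion, and in mice Nr4a1 is needed for non-classical, patrolling monocytes. EGR factors bind GC-rich sites downstream of MAP kinase signalling and are restrained by the NAB co-repressors.

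The promoters of 4 members are shown because the NR4A genes are known CREB targets and because Nr4a2 and Nr4a3 moved in the same direction in the classes described below. Nr4a1 was lower in the STK library in most myeloid classes, and any part of these sites in the levels was not tested. The sequences are RefSeq's, build GRCm38.p6, read 5′ to 3′ on the strand of the gene, and end at the base before an annotated start site, except that for Nr4a3 only the 98 of 250 upstream bases outside annotated exons are given, which end 152 bases before its start site. Egr2 has several annotated start sites, and the window shown is that of the site at 67537869. Capitals mark a CRE core, TGACG read on either strand (CGTCA on the other), an EGR site, GCGGGGGCG on either strand, or a CArG box, the site of serum response factor.
Nr4a1, chr15:101266596-101266845, plus strand: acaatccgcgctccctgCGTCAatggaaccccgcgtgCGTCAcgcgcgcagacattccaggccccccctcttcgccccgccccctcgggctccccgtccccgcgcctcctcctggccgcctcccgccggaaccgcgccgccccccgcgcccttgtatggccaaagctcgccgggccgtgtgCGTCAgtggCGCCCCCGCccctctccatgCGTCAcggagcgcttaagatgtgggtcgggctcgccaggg
Nr4a2, chr2:57124004-57124253, minus strand: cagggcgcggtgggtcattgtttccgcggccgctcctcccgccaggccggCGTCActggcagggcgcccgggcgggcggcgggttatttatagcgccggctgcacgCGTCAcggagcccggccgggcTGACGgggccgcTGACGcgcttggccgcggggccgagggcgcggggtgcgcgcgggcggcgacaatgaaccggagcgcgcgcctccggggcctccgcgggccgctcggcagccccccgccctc
Nr4a3, chr4:48045055-48045152, plus strand: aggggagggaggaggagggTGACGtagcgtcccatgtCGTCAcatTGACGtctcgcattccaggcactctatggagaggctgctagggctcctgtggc
Egr2, chr10:67537619-67537868, plus strand: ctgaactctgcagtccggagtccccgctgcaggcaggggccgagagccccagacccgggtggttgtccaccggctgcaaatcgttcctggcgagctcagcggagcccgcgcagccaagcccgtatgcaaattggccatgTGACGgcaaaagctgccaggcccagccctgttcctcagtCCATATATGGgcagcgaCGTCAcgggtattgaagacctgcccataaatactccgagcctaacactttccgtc
The CRE core occurred 4 times in the Nr4a1 stretch, 4 times in Nr4a2, 3 times in Nr4a3 and 2 times in Egr2, and 17.8% of 32851 RefSeq promoters held at least 1 in their 250 upstream bases. Over the 98 bases used for Nr4a3, that share was 5.22%. The Nr4a1 stretch held 1 EGR site, present in 2.57% of promoters, and the Egr2 stretch 1 CArG box, present in 1.47%. The full CRE, TGACGTCA, which contains the core and occurs in 1.55% of promoters, and the NBRE, AAAGGTCA, which occurs in 1.34%, were found in none of the 4 stretches. The window of the most upstream Egr2 start, at 67535499, held none of the 5 motifs in its 226 non-exonic bases. That of the start at 67537566 held no CRE core and 1 CArG box. The windows of the starts at 67537870 and 67537930 overlap the one shown and held the same sites. The Nr4a1 stretch lies in an intron of longer Nr4a1 transcripts and the Egr2 stretch in an intron of a longer Egr2 transcript, and no motif marked here overlapped another.

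In the GENCODE vM21 annotation (GRCm38) Nr4a1 (ENSMUSG00000023034) spans chromosome 15 from 101254269 to 101274795, Nr4a2 (ENSMUSG00000026826) chromosome 2 from 57106830 to 57124003 and Nr4a3 (ENSMUSG00000028341) chromosome 4 from 48045153 to 48086447. Egr1 (ENSMUSG00000038418) spans chromosome 18 from 34859823 to 34864984, Egr2 (ENSMUSG00000037868) chromosome 10 from 67535475 to 67542188 and Egr3 (ENSMUSG00000033730) chromosome 14 from 70077203 to 70082614. All 6 identifiers were those of the count tables, and UMIs were counted over whole genes, so isoforms are not told apart.

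After filters, 11152 of 11784 DMSO barcodes and 10846 of 11672 STK barcodes were kept, with medians of 4471.5 and 4930.5 UMIs per cell, and 203 barcodes occurred in both libraries. Markers gated 5436 DMSO and 6024 STK cells into 14 immune classes, 6 lymphoid and 8 myeloid, each named here for its gate: a class such as "NK" means cells with the markers of that gate. Of 31 further marker genes that the gates did not use, chosen after the leading genes of the gates had been seen, 56 of 62 gene and library pairs were highest in their own class among 15. No gate took 4649 DMSO and 4066 STK cells (41.7% and 37.5%). A further 1055 and 732 cells without a UMI of Ptprc, the gene of CD45, carried hepatocyte or tumour transcripts despite the CD45 sort. By Xist and Y-linked transcripts, 18.8% of the sexed DMSO cells and 74.0% of the sexed STK cells were female, so sex and treatment cannot be told apart between the libraries, and ratios are also given within female and within male cells. All intervals are exact 95% intervals for counting error only, and since each group was 1 library, differences have no replicate check and none was tested.

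Levels are in CPM, UMIs scaled to the total UMIs of the class in a library, and a pair of a gene and a class is called measured with at least 50 UMIs over both libraries. Of 84 such pairs of the 6 genes and 14 classes, 53 were measured. In the STK library 38 were at least 1.5 times higher and 3 at least 1.5 times lower. Over all genes and classes, 6.19% of 84631 measured pairs were at least 1.5 times higher and 6.39% at least 1.5 times lower. Nr4a2 and Nr4a3 were higher in the STK library in all 14 classes, Nr4a1 was higher in lymphoid and lower in most myeloid classes, and Egr1 was higher in 12 of 14.

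Nr4a1 was lower in the STK library in the monocyte gates and higher in the lymphoid gates. In non-classical monocytes it stood at 2139 CPM with DMSO and 1191 CPM with STK, 1.80 times lower (1.66 to 1.95). In classical monocytes, the Ly6c2- and Ccr2-positive cells that give rise to the non-classical ones, it stood at 1516 and 686 CPM, 2.21 times lower (2.08 to 2.35). Of 7071 genes measured in classical monocytes, 7011 had a higher ratio of STK over DMSO than Nr4a1. These were the only Nr4a1 pairs past a ratio of 1.5 in the lower direction.

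The other myeloid gates differed less. In cDC1, the Xcr1- and Clec9a-positive dendritic cells known for cross-presentation, Nr4a1 stood at 832 and 568 CPM, 1.46 times lower (1.34 to 1.61). Neutrophils had 1708 and 1419 CPM, 1.20 times lower (1.06 to 1.37). Macrophages had 557 and 494 CPM, 1.13 times lower (1.07 to 1.19). These 3 gates were thus all lower in CPM in the STK library, by less than in monocytes. cDC2 had 1192 and 1099.8 CPM, 1.08 times lower (1.01 to 1.16). In plasmacytoid dendritic cells (pDC) the level was higher, at 311 and 439 CPM, giving a ratio of 1.42 (1.31 to 1.52). Migratory dendritic cells had 171 and 216 CPM, and the interval of their ratio, 0.989 to 1.62, includes equal levels.

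All 6 lymphoid gates had more Nr4a1 in the STK library. CD4 T cells had 265 CPM in DMSO and 497 CPM in STK, a ratio of 1.87 (1.66 to 2.11). Gamma-delta T cells had 376 and 661 CPM, giving a ratio of 1.76 (1.45 to 2.14), which was 2.86 with 1 more marker UMI in the gate. B cells had 413 and 666 CPM, giving a ratio of 1.61 (1.39 to 1.86). Regulatory T cells (Treg), where Nr4a receptors are known to sustain Foxp3, followed closely. Their level was 372 and 572 CPM, giving a ratio of 1.54 (1.39 to 1.71). CD8 T cells had 202 and 291 CPM, giving a ratio of 1.44 (1.34 to 1.55), and NK cells 712 and 946 CPM, giving a ratio of 1.33 (1.27 to 1.39). In B cells the median of all measured genes was itself 0.10 higher on the log2 scale in the STK library, against -0.05 to 0.03 in the other classes.

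**Figure D1:**
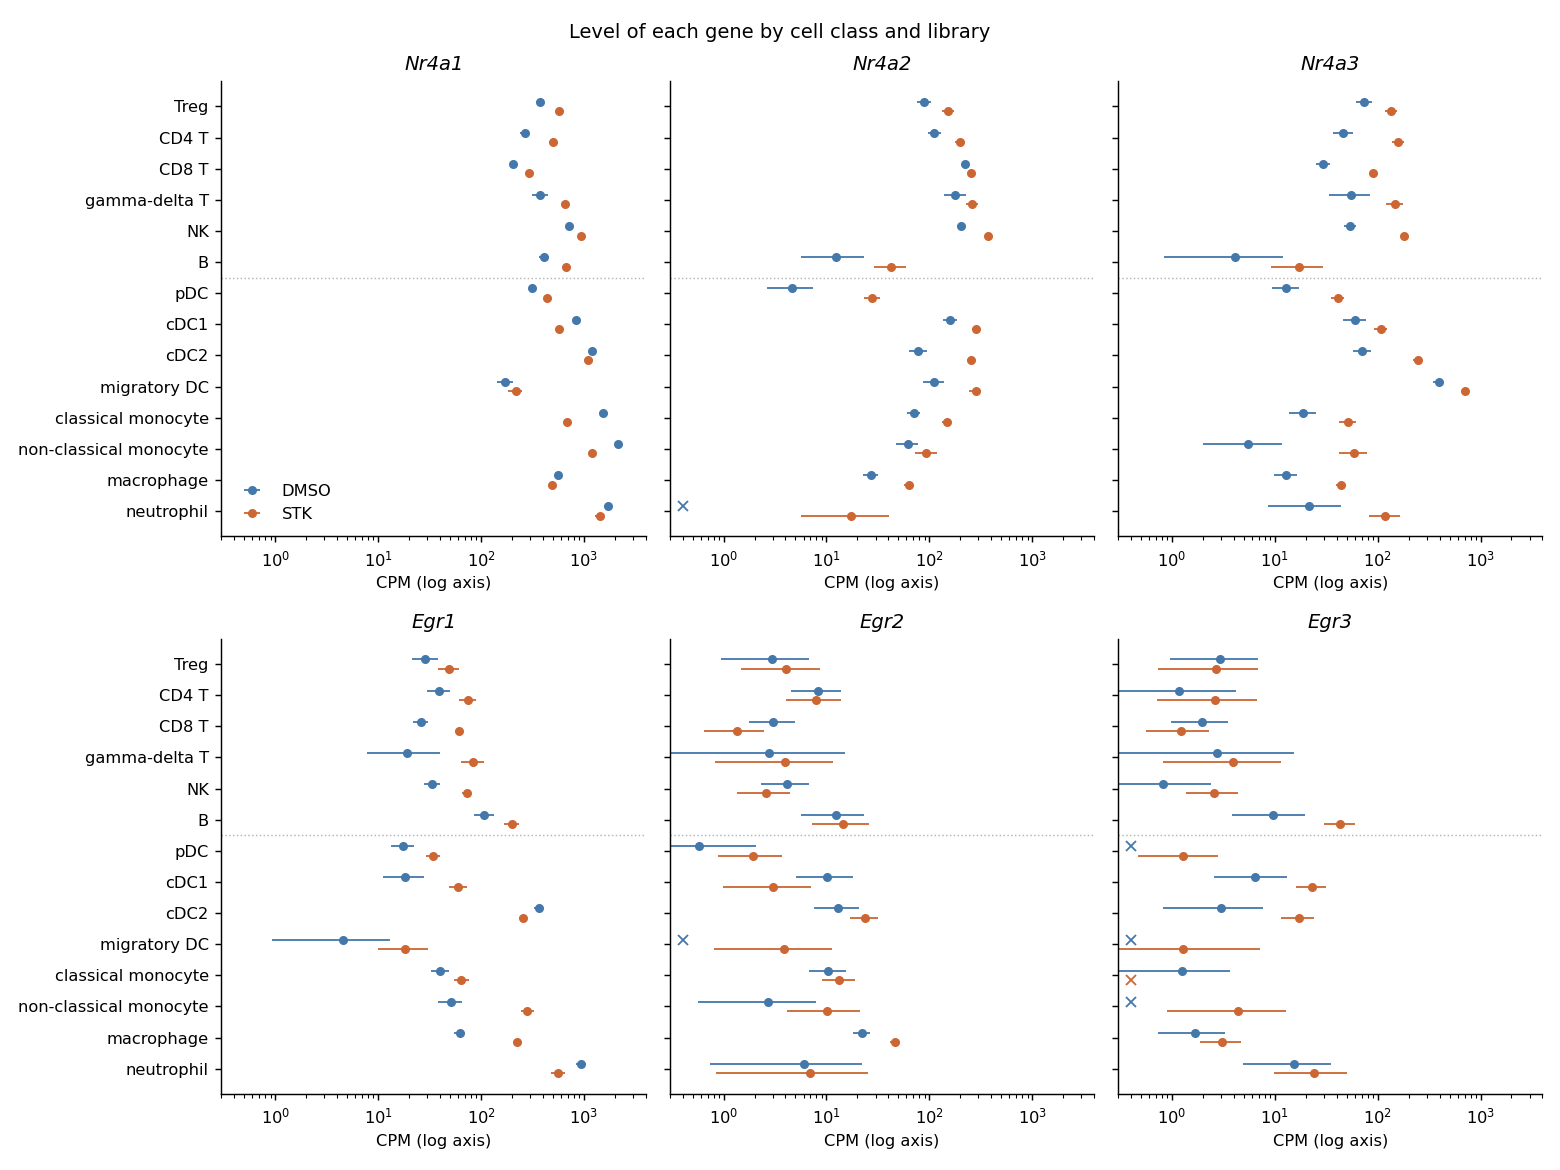
CPM of each member (log axis) in the 14 gated classes of the DMSO library (blue) and the STK library (orange), with exact Poisson intervals. Crosses at the left edge mark 0 UMIs and the dotted line divides lymphoid from myeloid classes. Nr4a2 and Nr4a3 lie to the right in the STK library in every class, whereas Nr4a1 goes from 1516 to 686 CPM in classical monocytes.

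With these differences the order of the classes changed. In the DMSO library Nr4a1 was highest in non-classical monocytes, then neutrophils, classical monocytes, cDC2, cDC1 and NK cells, and none of these neighbours overlapped in their counting intervals. In the STK library neutrophils were highest, non-classical monocytes and cDC2 followed with overlapping intervals, then NK cells, then classical monocytes with an interval overlapping that of B cells. Migratory dendritic cells and CD8 T cells were lowest in both.

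Within 1 sex the directions of Nr4a1 in monocytes were the same. Female classical monocytes had 1795 CPM in DMSO and 728 CPM in STK, 2.47 times lower, and male ones 1512 and 587 CPM, 2.58 times lower. Female non-classical monocytes had 2447 and 925 CPM, 2.64 times lower, and male ones 1857 and 854 CPM, 2.17 times lower. The male STK cells of the latter numbered 12. The monocyte differences were thus at least as large among the sexed cells of either sex as over all cells. Cells with RNA of neither sex are left out of this comparison. They were 221 of 437 DMSO and 135 of 341 STK classical monocytes, and 178 of 287 and 64 of 139 non-classical ones. In STK both sexed levels of non-classical monocytes lay below the 1191 CPM of the whole class. The lymphoid gates were above a ratio of 1 in 6 of 6 classes in female and in male cells, but the sizes differed. The CD8 T ratio was 2.70 (2.01 to 3.71) among female cells, against 1.19 (1.04 to 1.37) among male ones. For male NK cells it was 1.09 (0.976 to 1.22). In male neutrophils, with 99 and 25 UMIs, the ratio was 1.37 (0.845 to 2.14), above 1 where all cells together gave a lower level. The difference between the sexes was not tested.

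Counted per cell, fewer monocytes had many Nr4a1 copies in the STK library. Median Nr4a1 UMIs per classical monocyte were 7 in DMSO and 4 in STK, at median depths of 5200 and 6146 UMIs. The share of these cells with 10 or more Nr4a1 UMIs was 38.7% in DMSO and 10.3% in STK, while the share with none was 11.0% and 12.3%. In non-classical monocytes 35.2% and 13.7% had 10 or more. NK cells went the other way, with medians of 2 and 3 UMIs and 11.5% and 16.7% of cells with 10 or more.

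The non-classical monocyte gate held 287 DMSO and 139 STK cells, of 5436 and 6024 gated immune cells. Of 11 genes known for that subset, all were measured in it. Past a ratio of 1.5, 2 of them were lower in STK and 0 higher, which leaves 9 between. Their median log2 ratio was -0.29 against -0.0033 over all 4495 measured genes, of which 8.16% were at least 1.5 times lower and 8.65% at least 1.5 times higher. The 2 were Spn (CD43), at 180 and 96.5 CPM, and the enolase Eno3, at 311 and 174 CPM. The gate's own markers Ace and Treml4 are both among the 11 genes and so part of the median above. Ace was at 648 and 457 CPM and Treml4 at 409 and 294 CPM. The gate asks for a fixed number of their UMIs, while median depths were 3329 UMIs in DMSO and 4052 UMIs in STK. Their CPM thus depend on depth, and no difference is read from them.

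All 14 classes had more Nr4a2 with STK than with DMSO, with ratios from 1.16 in CD8 T cells to 6.09 in pDC among the 12 measured. The low levels of pDC, B cells and neutrophils are set beside a reference for free RNA below. NK cells had 202 CPM in DMSO and 368 CPM in STK, a ratio of 1.83 (1.68 to 1.99). CD8 T cells had 221 and 257 CPM, giving a ratio of 1.16 (1.08 to 1.25). Gamma-delta T cells had 178 and 261 CPM, giving a ratio of 1.46 (1.10 to 1.97), or 2.51 with 1 more marker UMI in the gate. CD8 T, NK, gamma-delta T and cDC1 cells formed the top of the order in DMSO, where each interval overlapped that of the next class. The CD8 T and NK intervals, however, lay above that of cDC1. In STK the NK level stood clear above the next. CD4 T cells had 112 and 199 CPM, giving a ratio of 1.78 (1.48 to 2.15), and Treg 89.5 and 151 CPM, giving a ratio of 1.68 (1.37 to 2.08). B cells had 9 and 32 UMIs.

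Dendritic cells also had more Nr4a2 in the STK library. In cDC2, 78.0 CPM in DMSO stood against 254 CPM in STK, a ratio of 3.25 (2.62 to 4.07). Migratory dendritic cells had 111 and 281 CPM, giving a ratio of 2.53 (1.93 to 3.34), and cDC1 160 and 285 CPM, giving a ratio of 1.78. In pDC the gene was scarce in both libraries, at 4.59 and 27.9 CPM from 16 and 130 UMIs, a ratio of 6.09 (3.61 to 11.0), which was 13 without the cells of highest Scrublet doublet score. Classical monocytes, where Nr4a1 was lower, had more Nr4a2, at 70.5 and 147 CPM, giving a ratio of 2.09 (1.73 to 2.53). Macrophages had 26.9 and 63.1 CPM, giving a ratio of 2.34 (1.92 to 2.88), and non-classical monocytes 61.8 and 93.5 CPM, giving a ratio of 1.51 (1.06 to 2.16), or 1.05 with 1 more marker UMI in the gate. Neutrophils had 0 UMIs in DMSO and 5 in STK. The share of cells with an Nr4a2 UMI was 1.46% in DMSO and 7.93% in STK for pDC. It was 3.54% and 8.45% for B cells and 0% and 2.91% for neutrophils. Cells with hepatocyte or tumour transcripts, taken below as the reference for free RNA, had higher shares, 5.78% and 12.98%. Those deeper cells had lower CPM than pDC and B cells, at 2.83 and 7.15 CPM. The part of free RNA in pDC, B cells and neutrophils was not tested. Within male cells the Nr4a2 ratio was above 1 in 11 of 12 classes with at least 20 UMIs and within female cells in 10 of 12. The exceptions were non-classical monocytes in male cells (0.617, from 23 and 3 UMIs) and Treg (0.625) and cDC1 (0.824) in female cells, where the DMSO library held 15 Treg and 6 cDC1.

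Nr4a3 had ratios from 1.78 to 3.44 in its 11 measured classes and a level above that of DMSO in the other 3 as well. Migratory dendritic cells, the Ccr7- and Fscn1-positive cells that travel to lymph nodes, were highest in both libraries. They had 395 CPM in DMSO and 706 CPM in STK, a ratio of 1.79 (1.54 to 2.08). cDC2 had 71.2 and 245 CPM, giving a ratio of 3.44 (2.75 to 4.34), and cDC1 60.2 and 107 CPM, giving a ratio of 1.78 (1.34 to 2.40). Migratory dendritic cells stood clear of all other classes in both libraries, and cDC2 came next in STK.

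Among lymphocytes, CD4 T cells had 46.5 and 158 CPM of Nr4a3, a ratio of 3.41 (2.63 to 4.45). NK cells had 53.9 and 181 CPM, giving a ratio of 3.36 (2.87 to 3.94). CD8 T cells had 29.5 and 90.9 CPM, giving a ratio of 3.08 (2.59 to 3.68). Their ratios overlapped, while that of Treg, 1.84 (1.46 to 2.31) from 73.7 and 135 CPM, lay below all 3. Gamma-delta T cells had 54.8 and 147 CPM, giving a ratio of 2.68 (1.66 to 4.56), or 4.83 as the mean over cells. Of the lymphoid gates, Treg had the highest level in DMSO and NK cells in STK, each with an interval overlapping that of the class next in order. B cells held 3 and 13 UMIs.

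In the remaining myeloid gates Nr4a3 was low in DMSO. Macrophages had 12.8 and 43.8 CPM, giving a ratio of 3.41 (2.59 to 4.57), classical monocytes 18.8 and 51.3 CPM, giving a ratio of 2.73 (1.92 to 3.95), and pDC 12.9 and 41.2 CPM, giving a ratio of 3.20 (2.30 to 4.53). Non-classical monocytes held 6 and 40 UMIs and neutrophils 7 and 34 UMIs, under the minimum. Within male cells all 11 classes with at least 20 UMIs had a ratio above 1, with intervals that exclude 1 in 11. Within female cells the ratio was above 1 in 10 of 12 classes, with intervals that exclude 1 in 8. The exceptions were Treg (0.589, from 10 and 84 UMIs) and cDC1 (0.690, from 9 and 59 UMIs). Of 7036 genes with at least 20 UMIs in at least 10 of the classes, 9 (0.128%) were at least 1.5 times higher in STK in every class where they had 20 UMIs. They were Nr4a3, the EGFR ligand Areg, the kinase gene Sgk1, Vegfa, Phlda1, Vps37b, the gene models Gm10260 and Gm48161, and Xist, the female-specific transcript that follows the sex mix. Of the same 7036 genes, 137 (1.95%) were higher by any amount in every such class, Nr4a2 and Nr4a3 among them.

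**Figure D2:**
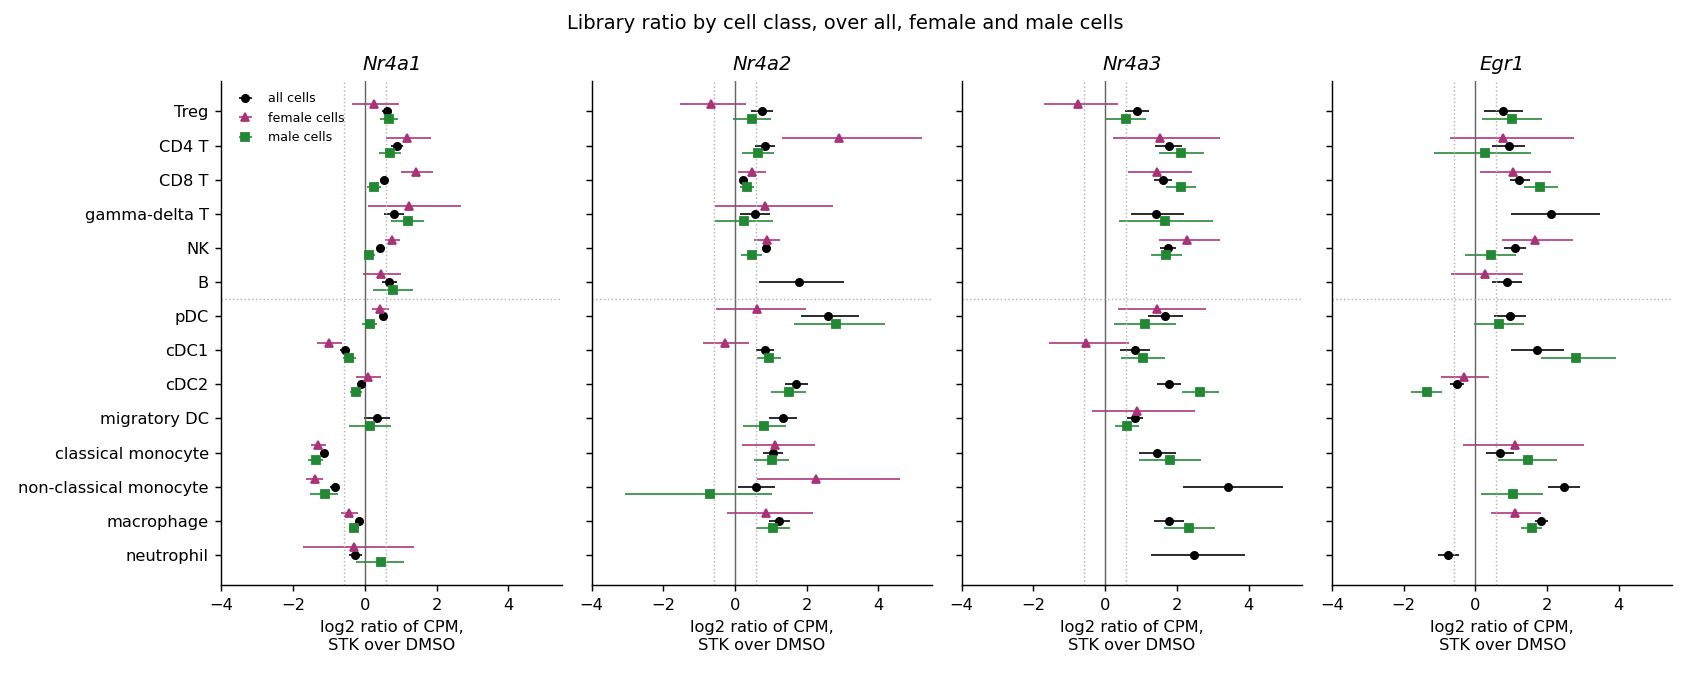
Log2 ratio of CPM, STK over DMSO, for Nr4a1, Nr4a2, Nr4a3 and Egr1 in each class over all cells (black), female cells (purple triangles) and male cells (green squares), with exact 95% intervals and points only with at least 20 UMIs over both libraries and 3 in each. The dotted vertical lines mark a ratio of 1.5 either way. Nr4a1 is the member with most myeloid points left of equal, and Nr4a3 lies right of equal over all cells in each class drawn.

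Egr1 was higher in the STK library in 12 of 14 classes and lower in neutrophils and cDC2, the classes where it was highest in DMSO. Neutrophils had 935 CPM in DMSO and 556 CPM in STK, 1.68 times lower (1.38 to 2.05), and cDC2 had 362 and 255 CPM, 1.42 times lower (1.25 to 1.61). The share of cDC2 with an Egr1 UMI went against this, at 40.9% and 57.4% of cells, and at 16.5% and 19.5% once each cell was thinned to 1000 UMIs, so no order is read from it. Non-classical monocytes went from 50.9 to 282 CPM, giving a ratio of 5.55 (4.10 to 7.61), which was 9.70 as the mean over cells and 9.93 with 1 more marker UMI in the gate. Macrophages went from 62.0 to 221 CPM, giving a ratio of 3.57 (3.15 to 4.06). Neutrophils stayed the highest class in both libraries, and in STK non-classical monocytes, cDC2, macrophages and B cells followed with overlapping neighbours. A few cells carried much of the RNA: the 5 highest non-classical monocytes held 53.6% of that class's Egr1 UMIs in DMSO and 45.6% in STK, and the 5 highest B cells 55.7% and 57.0%.

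Lymphocytes had modest Egr1 levels that were higher in STK. CD8 T cells had 25.9 and 60.9 CPM, giving a ratio of 2.35 (1.94 to 2.86), NK cells 33.7 and 72.4 CPM, giving a ratio of 2.15 (1.74 to 2.66), and CD4 T cells 38.8 and 73.9 CPM, giving a ratio of 1.90 (1.39 to 2.62). With 1 more marker UMI in the gate the CD4 T ratio was 1.22. B cells had 108 and 199 CPM, giving a ratio of 1.84 (1.39 to 2.45), and Treg 28.7 and 48.9 CPM, giving a ratio of 1.71. Gamma-delta T cells had 19.2 and 83.4 CPM from 7 and 63 UMIs. The 6 lymphoid gates thus lay in the same direction as for the 3 Nr4a genes. In cDC1 the level was 18.2 and 59.7 CPM, giving a ratio of 3.27 (2.01 to 5.59), in pDC 17.5 and 34.2 CPM, giving a ratio of 1.95 (1.44 to 2.67), or 3.58 without the cells of highest Scrublet score, and in classical monocytes 40.1 and 64.2 CPM, giving a ratio of 1.60 (1.23 to 2.10). Within male cells the cDC2 difference was 2.54 times, from 349 to 137 CPM, and within female cells 1.25 times, from 327 to 261 CPM, with an interval of the ratio that includes equal levels. Male neutrophils held 50 and 2 Egr1 UMIs.

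Among macrophages, Egr1 was highest in cells with Kupffer cell markers, which mark liver-resident macrophages. Macrophage-gated cells with a UMI of Clec4f or Timd4 numbered 9 in DMSO and 41 in STK and had 199 and 786 CPM of Egr1, a ratio of 3.95 (2.16 to 8.05). The macrophages without either marker had 60.4 and 201 CPM, giving a ratio of 3.32 (2.92 to 3.79). Egr1 was thus higher in STK also among the macrophages without the Kupffer markers. In the cells with hepatocyte or tumour transcripts Egr1 was at 89.2 and 293 CPM, giving a ratio of 3.29 (3.13 to 3.46), and the ratio was 10.0 among female and 2.25 among male cells. In those cells Nr4a1 was at 3.58 and 5.05 CPM, and Nr4a3 had 6 and 8 UMIs.

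Egr2, known in macrophages and in the restraint of T cell activation, was measured in 3 classes. Macrophages were highest, at 22.1 CPM in DMSO and 46.4 CPM in STK, a ratio of 2.10 (1.68 to 2.65), with 8.87% and 19.6% of unthinned cells holding a UMI. cDC2 had 12.9 and 23.7 CPM, giving a ratio of 1.84 (1.03 to 3.44), and classical monocytes 10.4 and 13.4 CPM, giving a ratio of 1.28 (0.730 to 2.28). The lymphoid gates held 1 to 17 Egr2 UMIs per library, too few to compare. Cells with hepatocyte or tumour transcripts held 3 Egr2 UMIs in DMSO and 53 in STK.

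Egr3, the third EGR factor, reached 50 UMIs over both libraries in no immune class. Its largest counts were 7 and 38 UMIs in cDC1, 7 and 33 in B cells and 4 and 31 in cDC2, with ratios of 3.59 (1.58 to 9.53), 4.54 (1.98 to 12.2) and 5.63 (1.99 to 22.0). CD8 T cells held 11 and 9 UMIs. Differences of less than several fold in Egr3 were not detectable at this depth.

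Because the share of cells with a UMI depends on depth, each cell was thinned to 1000 UMIs. The share of classical monocytes with Nr4a1 was then 63.4% (58.7 to 67.9) in DMSO and 50.4% (45.0 to 55.9) in STK, against 89.0% and 87.7% unthinned. For non-classical monocytes it was 82.7% and 67.6%, against 94.1% and 96.4% unthinned. NK cells went from 38.6% (35.0 to 42.4) to 48.9% (45.7 to 52.2), and Treg from 26.9% (22.0 to 32.2) to 38.0% (31.9 to 44.4). In cDC2 the thinned share with Nr4a1, 56.5% and 62.1%, went against the CPM, so no order is read there. Macrophages had 33.9% and 31.0%, but 50.6% and 51.1% when thinned to 2000 UMIs, so no direction is read from their share. Cells with hepatocyte or tumour transcripts were taken as the reference for free RNA of leukocytes. They had 0.285% and 0.686% at 1000 UMIs, and 5.12% and 7.38% unthinned. Those cells had median depths of 25647 and 25017.5 UMIs before thinning. Thinning cuts deep cells more than shallow ones, so their thinned share can understate free RNA in thinned leukocytes.

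For Nr4a3 the thinned share among migratory dendritic cells was 26.0% (17.9 to 35.5) in DMSO and 52.0% (41.8 to 62.0) in STK, against 74.3% and 93.1% unthinned. NK cells had 4.92% (3.43 to 6.81) and 16.4% (14.1 to 18.9), against 19.7% and 48.1% unthinned. In hepatocyte or tumour cells 0 of 1053 and 0 of 729 had a UMI, and the limit that 3 counts set on the share of such cells with a UMI is 0.285% and 0.412%, with exact Clopper-Pearson upper bounds of 0.350% and 0.505%. For Nr4a2, NK cells had 19.1% and 29.9%, and hepatocyte or tumour cells 0.570% and 1.10%. Neutrophil Egr1 was present in 48.3% (40.7 to 55.9) and 37.8% (29.8 to 46.2) of cells. At 2000 UMIs, which 21 DMSO and 29 STK neutrophils reached, the Egr1 shares were 38.1% and 48.3%, the opposite direction, so none is read from them.

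**Figure D3:**
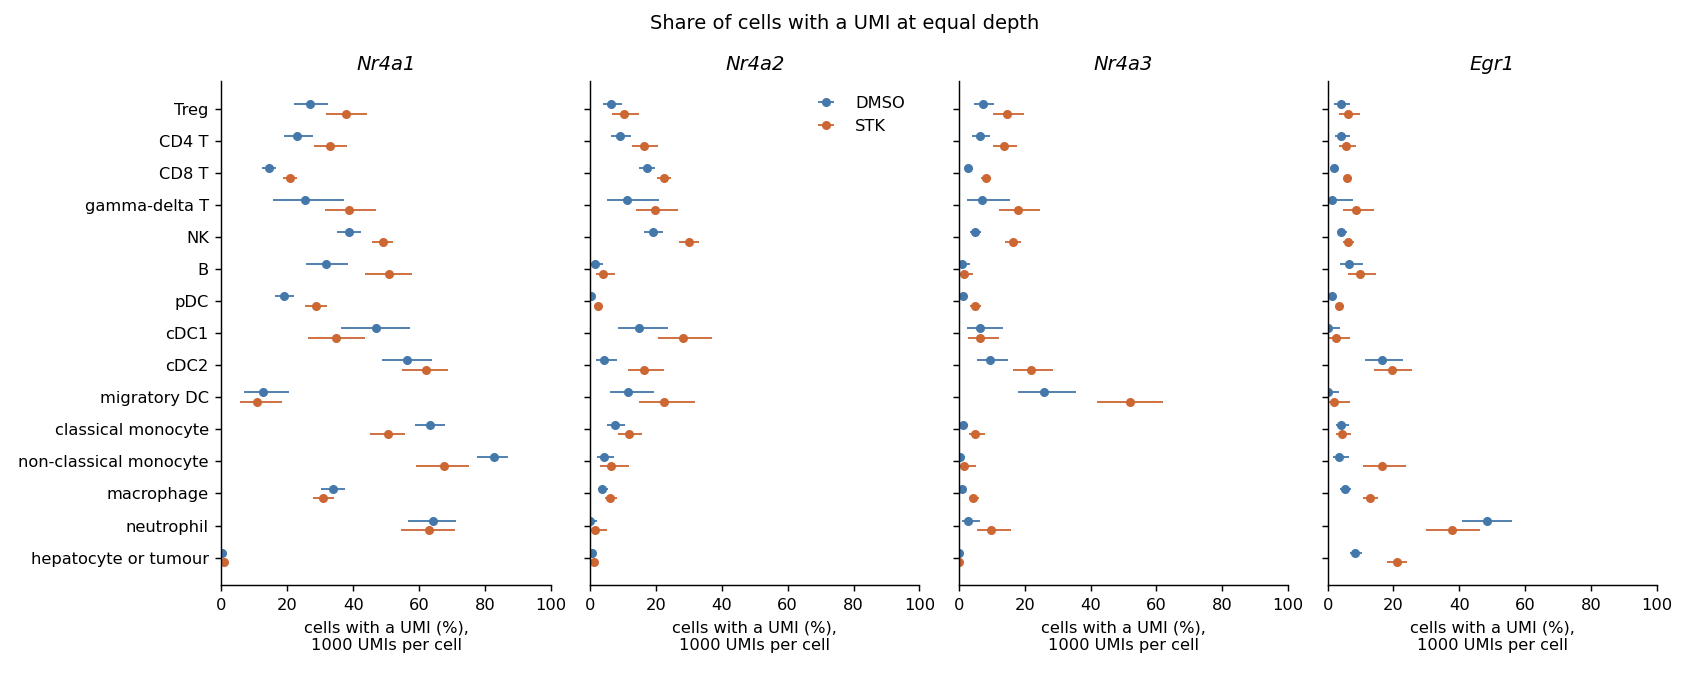
Percent of cells with at least 1 UMI of Nr4a1, Nr4a2, Nr4a3 or Egr1 after thinning each cell to 1000 UMIs, by class and library, with exact Clopper-Pearson intervals. The bottom row shows cells with hepatocyte or tumour transcripts, at 0.285% and 0.686% for Nr4a1, and classical monocytes go from 63.4% to 50.4%. The hepatocyte or tumour cells were deeper before thinning, so their share can understate free RNA in leukocytes.

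Within CD8 T cells, the Nr4a2 level differed between subsets. Cells with a UMI of Havcr2, the TIM-3 gene that marks terminally exhausted cells, were set against the other CD8 T cells. In DMSO Nr4a2 stood at 412 CPM in the 137 Havcr2 cells and 179.5 CPM in the 948 others, a ratio of 2.29 (2.03 to 2.58). In STK it stood at 304 CPM in 157 Havcr2 cells and 248 CPM in 1334 others, a ratio of 1.23 (1.09 to 1.38). Over all CD8 T cells, sexes together, the Nr4a2 level was thus closer between the subsets in STK. Between the libraries, the ratio of STK over DMSO was 0.738 (0.640 to 0.851) in Havcr2 cells and 1.38 in the others, so the subsets lay on opposite sides of equal. That split was made after the values of the whole class had been seen, and the difference was not tested.

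By sex, male Havcr2 cells had 368 and 237 CPM of Nr4a2, a ratio of 0.644 (0.487 to 0.844), and the other male CD8 T cells 179 and 289.9 CPM, giving a ratio of 1.62 (1.40 to 1.88). Female Havcr2 cells numbered 4 in DMSO, against 71 male ones, too few to compare between the libraries. The other female cells had 169 and 211 CPM, with an interval of the ratio (0.957 to 1.65) that includes equal levels. In STK, 61 female Havcr2 cells had 313 CPM, above the other female cells. The 30 male Havcr2 cells in STK, at 237 CPM, lay below the other male cells. The closer Nr4a2 level over all cells in STK thus mixed opposite directions in the sexes, and sex and treatment cannot be told apart there. Nr4a1 differed little between the subsets, with ratios of Havcr2 cells over the others of 0.843 (0.713 to 0.991) in DMSO and 0.887 (0.785 to 0.999) in STK. Nr4a3 was at 33.9 and 28.5 CPM in Havcr2 cells and the others in DMSO and at 61.4 and 96.8 CPM in STK, a ratio in STK of 0.635 (0.492 to 0.808). A Havcr2 cell needed only 1 UMI of that gene, and the other cells can include cells that express it. Median depths were 5467 and 5266 UMIs in Havcr2 cells and 4015 and 3672.5 UMIs in the others.

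**Figure D4:**
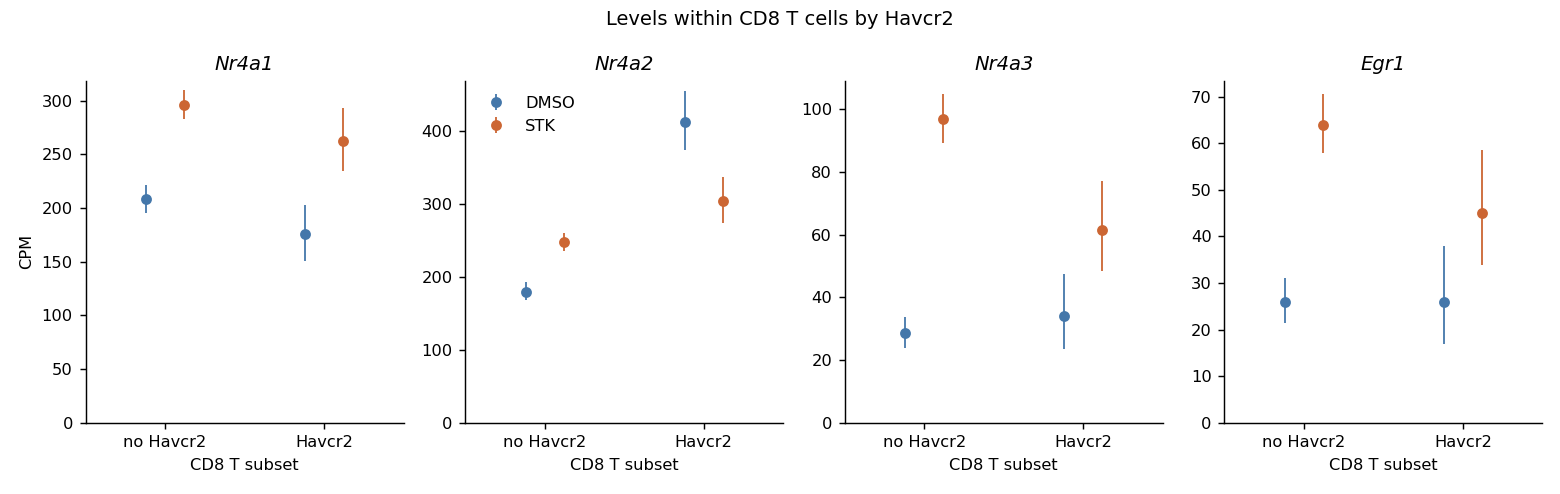
CPM of Nr4a1, Nr4a2, Nr4a3 and Egr1 in CD8 T cells of the DMSO library (blue) and the STK library (orange), split into cells without and with a UMI of Havcr2, with exact Poisson intervals and axes from 0. Nr4a2 goes from 179.5 to 412 CPM between the subsets in DMSO and from 248 to 304 CPM in STK.

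Other genes of T cell activation and exhaustion went in both directions, with more of them higher in CD4 and gamma-delta T cells. In CD8 T cells 27 of 28 were measured. Past a ratio of 1.5, 2 were higher and 2 lower in STK, which leaves 23 between, and their median log2 ratio was -0.02 against 0.00065 over all 9622 genes measured there. The higher genes were the costimulator Icos, at 55.9 and 128 CPM, and the inhibitory receptor Tigit, at 201 and 306 CPM. The lower ones were Id3, an inhibitor of E proteins and a known EGR target, at 44.8 and 14.9 CPM, and Ifng, at 107 and 63.3 CPM. Over all genes in CD8 T cells 5.05% were at least 1.5 times higher and 4.42% lower. Icos was at least 1.5 times higher in 5 of the 5 classes where it was measured, with a median ratio of 2.29. In Treg 24 of the 28 were measured, 1 was higher (Icos, 263 and 403 CPM), 4 were lower and 19 stayed between. Their median log2 ratio and that of all genes there were both -0.02, and over all genes 5.18% were at least 1.5 times higher and 6.07% lower. The 4 were Lag3, Ifng, Tnf and Cd200.

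In CD4 T cells 26 of the 28 were measured, and past a ratio of 1.5 there were 6 higher and 2 lower, with a median log2 ratio of 0.10 against -0.05 over all genes there, of which 6.84% were higher and 8.59% lower. The higher genes included the costimulatory receptors Tnfrsf9 (4-1BB), at 108 and 213 CPM, and Icos, at 248 and 454 CPM, and the interleukin-2 receptor gene Il2ra, at 27.1 and 50.1 CPM. In gamma-delta T cells 17 were measured, with 6 higher and 2 lower and a median log2 ratio of 0.16 against 0.03 over all genes there, of which 9.6% were higher and 4.5% lower. The higher ones included Icos, at 63.0 and 150 CPM, Tnfrsf9, at 104 and 224 CPM, and Pdcd1, which encodes PD-1, at 112 and 244 CPM. Ifng was lower in both, at 123 and 77.8 CPM in CD4 T cells and at 87.7 and 39.7 CPM in gamma-delta T cells.

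Other immediate-early genes went in both directions. Fos was at least 1.5 times lower in STK in 9 of 14 classes, with a median ratio of 0.546, and Jun in 13 of 14, with a median ratio of 0.382. In classical monocytes Fos stood at 4991 and 1906 CPM and Jun at 1343 and 346 CPM. Their relatives Fosb and Fosl2 went the other way: Fosb was at least 1.5 times higher in 13 of 14 classes (median ratio 2.37) and Fosl2 in 10 of 12 (median ratio 2.25). Junb and Jund lay within a ratio of 1.5 either way in 13 of 14 classes each, and Batf in 10 of 11. The AP-1 list as a whole, 10 genes, had class medians of the log2 ratio from -0.40 in macrophages to 0.29 in Treg.

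Among 21 other immediate-early genes the class medians ran from -0.33 in cDC1 to 0.40 in CD4 T cells. Zfp36, which destabilises AU-rich mRNAs, was at least 1.5 times lower in 13 of 14 classes (median ratio 0.509), the MAP kinase phosphatase Dusp1 in 12 of 14 (median ratio 0.595) and Klf6 in 10 of 14 (median ratio 0.570). Dusp5, the ERK phosphatase, was at least 1.5 times higher in 9 of 14 (median ratio 1.66). Many others stayed within that fold: Zfp36l1 and Ppp1r15a in all 14 classes, Btg1, Nfkbia and Tnfaip3 in 13 and Ier2 in 12. Over all genes and classes, 6.19% of measured pairs were higher by that fold and 6.39% lower. Of the EGR partners and relatives, Nab1 lay between in all 14 classes where it was measured, Nab2 was measured in 6 and Klf10 in 8, and Egr4 and Wt1 in none. Nab2 was at least 1.5 times higher in 1 and lower in 1.

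Some heat shock genes, a family that cell dissociation induces along with immediate-early genes, were much lower in the STK library. Hspa1a and Hspa1b were at least 1.5 times lower in 13 of 13 measured classes, with median ratios of 0.0400 and 0.0216, and Hsph1 in 13 of 13, with a median ratio of 0.371. Of the other 7, Dnajb1 was at least 1.5 times lower in 11 of 14 classes, Dnaja1 in 7, Hspa8 in 5, Hsp90aa1 and Hspd1 in 3 each and Hspe1 in 1, and Hspb1 was lower in 5 of 7 and 4.87 times higher in classical monocytes. The class medians of the 10 heat shock genes ran from -1.16 in pDC to -0.40 in classical monocytes on the log2 scale. The near-identical Hspa1a and Hspa1b share reads and are uncertain singly. Hspa1a, Fos and Jun thus lay in the direction of Nr4a1 in monocytes and opposite to Nr4a2 and Nr4a3, and the part of handling in these differences was not tested. RNA of hepatocytes or tumour made up 0.0112% to 0.0792% of the UMIs of the immune gates in DMSO and 0.0102% to 0.0682% in STK, and 1.46% and 1.44% in the gate named for it.

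**Figure D5:**
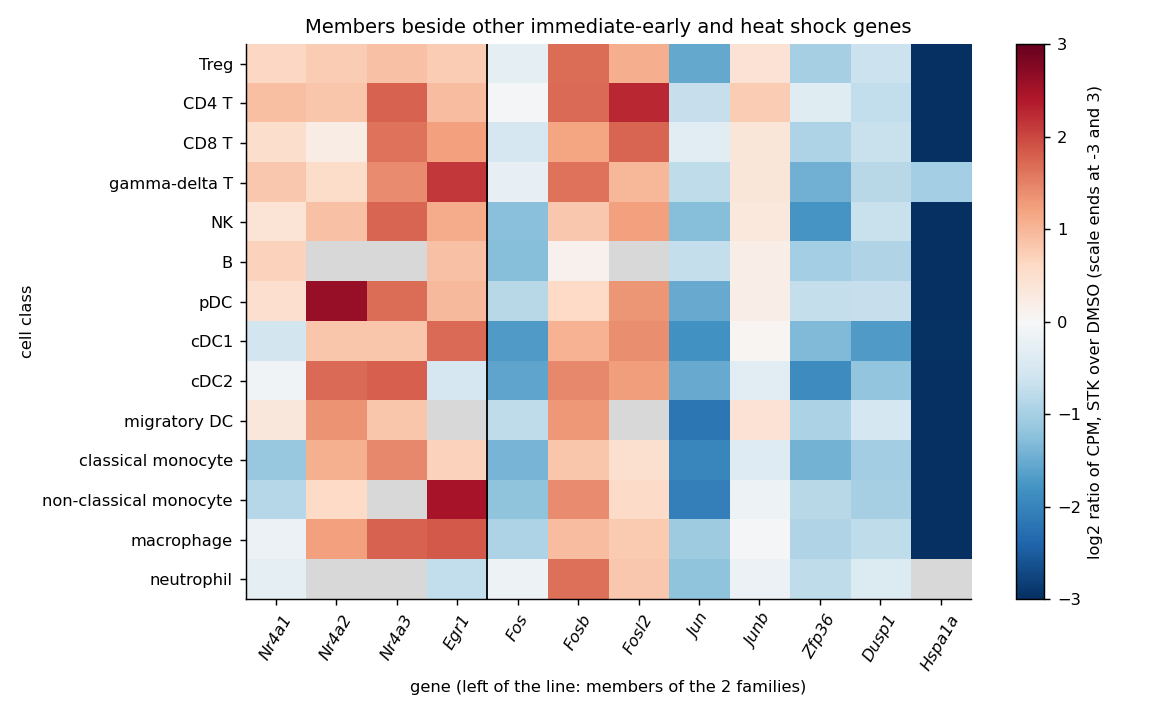
Log2 ratio of CPM, STK over DMSO, in each class (rows) for 4 members (left of the line) and 8 other immediate-early or heat shock genes, with red higher in STK, blue lower and grey under 50 UMIs. The colour scale ends at 3 either way, past which Hspa1a lies in most classes, and Fos and Jun are blue where Nr4a2 and Nr4a3 are red.

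Cells that no gate took had less Nr4a1 and more Nr4a2, Nr4a3 and Egr1 in STK: Nr4a1 stood at 639 and 484 CPM, Nr4a2 at 67.0 and 148 CPM, Nr4a3 at 24.4 and 90.6 CPM and Egr1 at 90.4 and 149 CPM. Their Egr2 level was 9.17 and 9.44 CPM, a ratio of 1.03 (0.855 to 1.24). These cells mix classes, and their makeup can differ between the libraries. Within single cells the members were seen together only in part. At 1000 UMIs per cell, 27.7% of NK cells with Nr4a1 also had Nr4a2 in DMSO against 13.7% of those without, and in STK the shares were 29.4% and 30.4%. For Nr4a3 the shares in NK cells with and without Nr4a1 were 7.49% and 3.30% in DMSO and 21.0% and 12.0% in STK. In STK macrophages 13 cells had both Egr1 and Egr2, and 12.6% of cells with Egr1 had Egr2 against 2.59% of those without. In DMSO macrophages 1 cell had both, and the shares were 2.78% and 1.52%.

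Across the 30 sums of 15 classes and 2 libraries, which share libraries and differ in depth, the levels of Nr4a2 and Nr4a3 had a Spearman rho of 0.74, whereas Nr4a1 had a rho of -0.0024 with Nr4a2 and 0.098 with Nr4a3. Among 6615 genes that reached 50 CPM in some sum, the 5 most like Nr4a3 were Traf1 (0.86), Gpr132 (0.85), which encodes the lipid-sensing receptor named in the title of the series, Bhlhe40 (0.85), Tes (0.84) and Tpm4 (0.83). For Nr4a2 they were Tpm3 (0.86), the activating receptor gene Klrk1 (0.85), 1810037I17Rik (0.84), Myl6 (0.83) and Serpinb9 (0.82).

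The genes most like Nr4a1 included Rin3 (0.85), Fam49b (0.82), Card19 (0.81) and Rab31 (0.80). For Egr1 the 5 were Acsl3 (0.72), Serpina1e (0.70), Sde2 (0.61), Pter (0.61) and Acot1 (0.61), where Serpina1e is a hepatocyte gene and the hepatocyte or tumour gate is among the sums. For Egr2 they were Ppp1r21 (0.67), the inhibitory Fc receptor gene Fcgr2b (0.67), the mannose receptor gene Mrc1 (0.66), Tiparp (0.63) and Kdm7a (0.63), and for Egr3 Slc16a6 (0.66), Txndc16 (0.58), Retreg1 (0.56), Lrrk2 (0.53) and Glipr1 (0.53). Each rho is a description over sums that are not independent. The like genes are the highest of 6615 or 6616 genes over 30 sums, so part of their rho can come from that choice. Egr3 ranks rest on few UMIs, with 0 CPM in pDC, migratory dendritic cells and non-classical monocytes of DMSO and in classical monocytes of STK. No relation is read from its list.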

How the data were processed

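The deposited files are matrices of raw UMI counts, 1 per library, unnormalized. Cell Ranger 6.0.2 made them per the file headers, on GRCm38 (mm10), a build credited to the submitters' processing notes. Their annotation release was not given in the sources used. The members and the gene lists were chosen with earlier results of these data known.

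Cells under 500 UMIs, under 250 genes or over 10% mitochondrial UMIs were dropped, in all 632 DMSO and 826 STK barcodes, 606 and 805 of them over the mitochondrial limit. Total counts were 79322966 and 81859811 UMIs. Cells were gated on the presence of class markers and the absence of markers of other lineages: T gates needed 2 UMIs of Cd3 genes, CD8 T 2 of Cd8a and Cd8b1, NK 3, and macrophages 5 of C1q genes. The marker minimums were set after the marker counts had been seen. Cells passing several gates (12 and 24) were left out. Female cells had Xist and no Y-linked UMI, and male cells the reverse. A cell was called hepatocyte or tumour with at least 20 UMIs and 0.3% of UMIs from such genes and no Ptprc.

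CPM was computed here from the UMIs of a gene summed over a class in 1 library, relative to that class's total. Poisson, binomial and Clopper-Pearson 95% intervals cover counting error only. Reads were counted as UMIs, but the interval still says nothing of animals. Named genes were the 6 members, up to 4 genes of a list furthest from equal with at least 50 UMIs, and the 5 genes most like each member. One like gene and one marker split of CD8 T cells are not reported here, and the split by Havcr2 was adopted in its place after the values were seen. Genes that a list's counts single out over classes were named after their values were seen. Tools were Python 3.11.15, scanpy 1.11.5 for Scrublet, edgeR 4.0.16 and DESeq2 1.42.0 for scaling factors only. Interval code was checked on simulated counts. The closing section gives the alternatives.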

Additional observations from a re-analysis of the deposited data

Results flagged for a closer look

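Nr4a1 had ratios of STK over DMSO on both sides of equal: 1.87 in CD4 T cells and 0.452 in classical monocytes. Egr1 likewise stood at 5.55 in non-classical monocytes and 0.595 in neutrophils. In each case classes of the same 2 libraries moved in opposite directions, and the difference between the classes was not tested. Nr4a2 in non-classical monocytes had a ratio of 4.78 in female and 0.617 in male cells, from 3 and 43 UMIs in female and 23 and 3 UMIs in male cells. The difference between the sexes was not tested.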

How the results depend on the processing

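The 53 measured ratios kept their direction under 8 alternatives: scaling by edgeR TMM or DESeq2 size factors, totals without mitochondrial, ribosomal, receptor and hepatocyte genes, the mean over cells, at least 1000 UMIs per cell, at most 5% mitochondrial UMIs, gates with 1 more marker UMI, and doublets. For doublets the cells with the highest Scrublet scores (870 DMSO and 836 STK) were left out, a setting chosen after seeing the data because the automatic threshold called 217 and 0. Pairs at least 1.5 times higher, 38 as reported, numbered 33 to 40 under these, and pairs at least 1.5 times lower 3 or 4. With a fold of 2 the counts were 20 and 1, with no minimum on UMIs 52 and 7, in female cells 26 and 5 and in male cells 26 and 4. In female cells 40 of 45 pairs with a value kept their direction and in male cells 48 of 50. Those that reversed beyond equal were, in female cells, Nr4a2 in Treg (0.625) and cDC1 (0.824) and Nr4a3 in Treg (0.589) and cDC1 (0.690), and in male cells Nr4a2 in non-classical monocytes (0.617). Nr4a1 also crossed equal in female cDC2 (1.06) and male neutrophils (1.37). The DMSO library held 15 female Treg, 6 female cDC1 and the STK library 12 male non-classical monocytes, and the cause was not tested. Egr1 in non-classical monocytes, 5.55 as reported, was 9.70 as the mean over cells and 9.93 with 1 more marker UMI, and Nr4a2 in pDC, 6.09, was 13 without the cells of high Scrublet score, which also took Egr1 in pDC from 1.95 to 3.58. With 1 more marker UMI, Nr4a2 in non-classical monocytes was 1.05, Egr1 in CD4 T cells 1.22, and Nr4a1 and Nr4a2 in gamma-delta T cells 2.86 and 2.51. As the mean over cells Nr4a3 in gamma-delta T cells was 4.83. No paired analysis was possible because each group was 1 library. Depth limits Egr2 in lymphocytes and Egr3 throughout.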
